A study of Mus musculus with 10 samples.

Results

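The cytochrome P450 genes were taken as the rows of the expression table whose gene symbol had the form Cyp, a family number, subfamily letters and a member number. The rule found 94 of the 55487 genes in the table, and 28 of the 94 had a mean of at least 1 TPM over the 10 libraries. TPM, the unit of the table, scales transcripts by their length and by the library total, so levels of different genes are comparable per length. The rule used the symbols and no measured value. The libraries were made from the RNA of intestinal epithelial cells (IECs), which EDTA and DTT released from the colon. There were 5 WT libraries and 5 RhoB-/- libraries, all from C57BL/6J mice that received no treatment, young adults by the study's general methods, with no age in the labels. RhoB-/- mice carry a homozygous deletion of Rhob, which encodes a small GTPase, in every tissue. The WT mice were purchased and the RhoB-/- mice were generated elsewhere, so genotype and the source of the mice cannot be told apart. The comparison asked how the transcripts of colonic IECs differ without RhoB.

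P450 enzymes are haem proteins that insert 1 oxygen atom into fats, sterols and foreign chemicals. Most sit in the endoplasmic reticulum and draw electrons from P450 oxidoreductase (Por), and a few sit in mitochondria and draw them from ferredoxin and its reductase. The CYP1, CYP2 and CYP3 families are best known for drugs, dietary chemicals and arachidonic acid, the CYP4 family for fatty acids and leukotrienes, and other families for bile acids, vitamin D, retinoic acid and steroid hormones. In the gut, P450 enzymes meet food chemicals and microbial products before the liver does, and their levels vary along the length of the bowel and along the crypt.

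The targeted gene was measured first. Rhob stood at 170.5 to 388.7 TPM in the WT libraries and at 0.09 to 0.57 TPM in RhoB-/- replicates 1 to 4. The library labelled RhoB-/- replicate 5 held 110.9 TPM of Rhob, which goes against its label, and calls that are lost without it are named beside the results. The log2 fold change of Rhob was -6.61 (SE 1.08, adjusted p = 0.00172, limma), and -7.90 without that library. The libraries listed 20261 to 21344 genes above 0, and the mitochondrial share of TPM was 17.5% to 26.5% in WT and 10.3% to 22.4% in RhoB-/-. The depth of the libraries is unknown, since TPM keeps no depth. Colonocyte markers were abundant in every library, with a summed level of 16991 to 23379 TPM in WT and 19447 to 35666 in RhoB-/-, and 7 hepatocyte genes summed to 17.6 to 40.8 TPM in WT and 7.72 to 16.3 in RhoB-/-, nearly all from Ttr and Cps1, with Fgb and Serpina1a at 0.

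RhoB-/- IECs held more of 10 P450 transcripts and less of 6. The higher genes were 5 of the Cyp2d subfamily and Cyp4f14, Cyp4f16, Cyp3a13, Cyp2c65 and Cyp2j6, and their log2 fold changes ran from 0.64 to 1.58. The lower genes were Cyp2c68, Cyp2c69, Cyp2c40, Cyp2f2, Cyp39a1 and Cyp20a1, and Cyp2c68, Cyp2c69 and Cyp2c40 had RhoB-/- means of 6.19, 1.55 and 0.286 TPM against WT means of 43.3, 11.1 and 2.43 TPM. A gene was called at an adjusted p below 0.05 in a limma fit of log2(TPM + 1), with Benjamini-Hochberg adjustment over all 12870 genes that averaged at least 1 TPM. Fold changes are RhoB-/- minus WT on that scale, which understates the change of genes at low TPM. Among the 12870 genes, 7.73% were called higher, 13.5% lower and 21.2% in either direction, against 35.7%, 21.4% and 16 of the 28 tested P450 genes. By an unadjusted p below 0.05 with a fold above 1.5, 10 P450 genes were higher and 7 lower, where 6.37% and 8.33% of all tested genes were. Cyp2c40 (RhoB-/- mean 0.286 TPM) passed the filter through its WT libraries alone, so the filter fixed its direction and favoured its call. Cyp4f17 and Cyp2r1, which were not called, also had RhoB-/- means under 1 TPM. The remaining 12 tested genes were not called. Scaling without mitochondrial genes gave 10 higher and 10 lower, with Cyp27a1, Cyp2s1, Cyp2w1 and Cyp4f17 added to the lower genes. The median log2 fold change was -0.14 over the 28 genes and -0.13 over all tested genes. In bulk IECs, fewer cells of a type and less RNA per cell cannot be told apart.

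Of the 28 genes, 12 had separate groups. The RhoB-/- libraries were each above every WT library for Cyp2d34, Cyp4f14, Cyp3a13, Cyp4f16, Cyp2d26 and Cyp2d9, where 5.97% of all tested genes did so. They were each below every WT library for Cyp2c68, Cyp2c69, Cyp2c40, Cyp2f2, Cyp20a1 and Cyp4f17, where 8.55% of all tested genes did so. Among these, Cyp2c40 and Cyp4f17 passed the filter through WT alone, with RhoB-/- means of 0.286 and 0.962 TPM. Without the library labelled RhoB-/- replicate 5, 8 genes were called higher and 5 lower: Cyp2d22, Cyp2j6 and Cyp20a1 lost their calls.

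**Figure D1:**
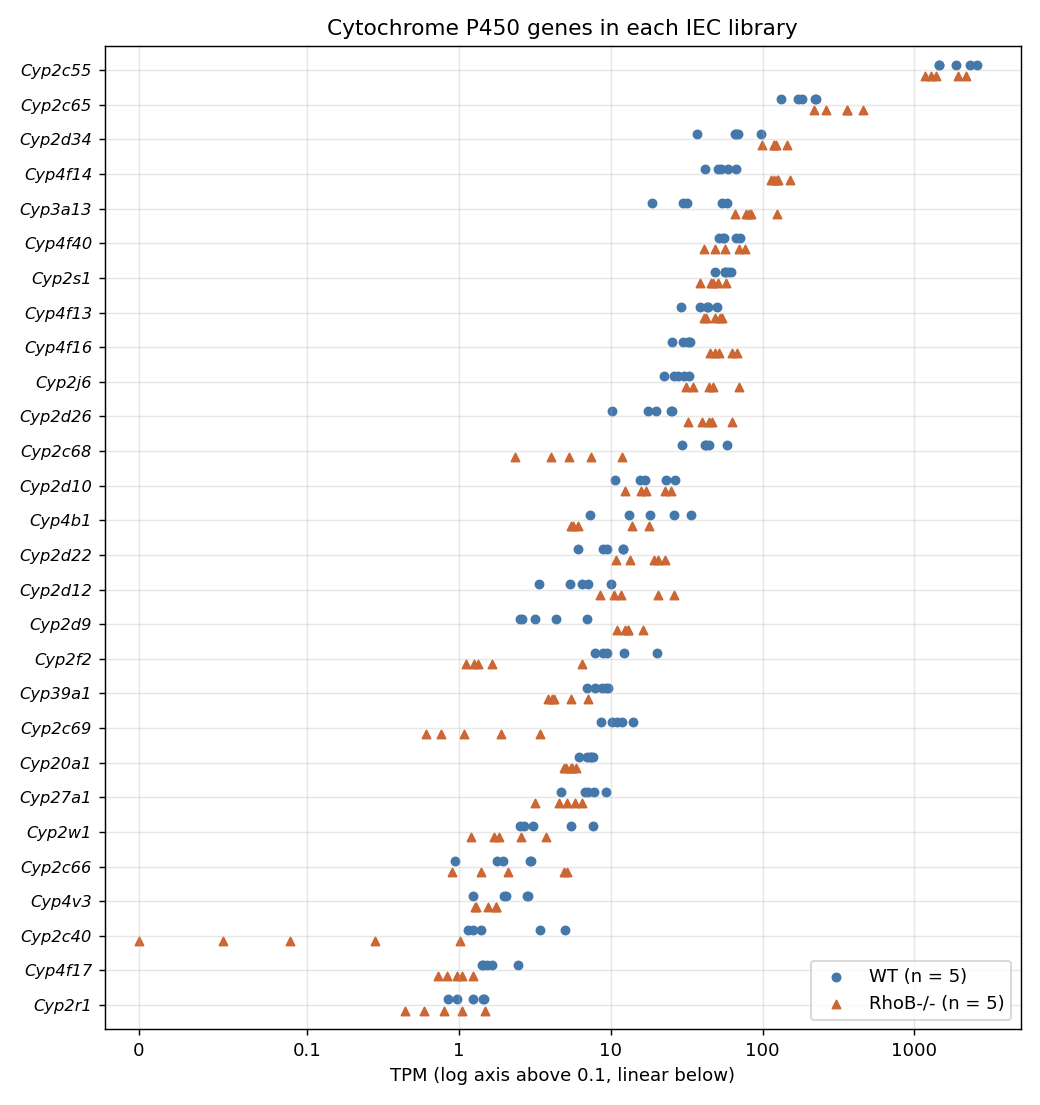
TPM of the 28 tested P450 genes in each library (x axis, logarithmic above 0.1 TPM and linear below it), with genes ordered by mean level on the y axis, 5 WT points and 5 RhoB-/- points per gene. Cyp2c55 stands between 1175 and 2565 TPM in both groups, and the points of Cyp2c68, Cyp2c69 and Cyp2f2 separate with RhoB-/- below WT.

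**Figure D2:**
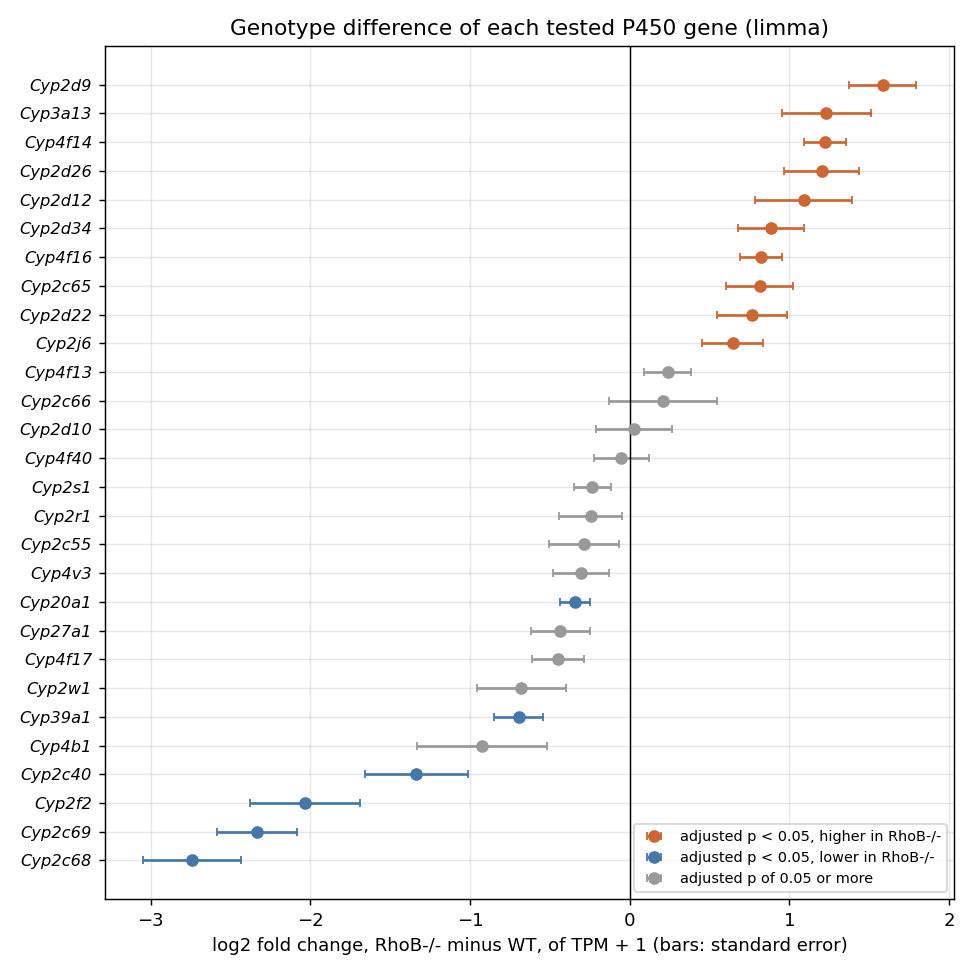
Log2 fold change, RhoB-/- minus WT, of each tested P450 gene on the x axis, with standard errors as bars and genes sorted by size. The 10 genes called higher reach 1.58 (Cyp2d9), and the 6 called lower reach -2.74 (Cyp2c68).

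Most P450 transcript in the colonic IECs came from 1 gene, Cyp2c55, which metabolizes arachidonic and linoleic acid. Its TPM was 1457, 1455, 2565, 1882 and 2341 in the 5 WT libraries and 1175, 1284, 1379, 1940 and 2186 in the 5 RhoB-/- libraries. The ranges overlapped over most of their length, and Cyp2c55 was not called (log2 fold change -0.29, SE 0.22, adjusted p = 0.366). The summed TPM of the 94 genes was 2689 ± 579 in WT and 2672 ± 610 in RhoB-/- (SD, n = 5 each, exact permutation test, two-sided p = 0.944). Cyp2c55 made up 71.6% ± 4.10 of that sum in WT and 59.1% ± 3.38 in RhoB-/- (SD, n = 5 each, exact permutation p = 0.00794, the smallest p that this design allows). The other 93 genes summed to 748.5 ± 99.0 TPM in WT and 1079 ± 176 in RhoB-/- (SD, n = 5 each, exact permutation p = 0.00794). Neither this sum nor the share was planned. The most abundant of the 93, Cyp2c65, Cyp2d34, Cyp4f14 and Cyp3a13, were each called higher, so both results are not separate from those calls. The total of the P450 pool differed by less than the spread between libraries, and a larger portion of it lay outside Cyp2c55 in RhoB-/-. The Cyp2c55 share was 55.99% to 63.7% over the RhoB-/- libraries and 65.03% to 75.4% over the WT libraries.

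Of the 15 genes of the Cyp2c subfamily, all on chromosome 19, 6 passed the filter, of which 1 was called higher and 3 lower. Cyp2c55, Cyp2c65 and Cyp2c66 lie next to each other on the plus strand (GRCm38). Cyp2c67, Cyp2c68, Cyp2c40 and Cyp2c69 lie further along on the minus strand, between positions 39608842 and 39886799. The 4 minus-strand genes are near copies of each other, and so are Cyp2c65 and Cyp2c66. In coding sequence Cyp2c68 shared 96.5% of bases with Cyp2c69, 97.1% with Cyp2c67 and 92.6% with Cyp2c40, and Cyp2c65 shared 96.3% with Cyp2c66. Cyp2c65 and Cyp2c68 shared 70.7%, and Cyp2c55 and Cyp2c65 shared 75.3%.

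The stretch before the start site, shown here because it is where the near copies that fell also resemble each other, was read from RefSeq (GRCm38.p6). The minus-strand segments lie at chr19:39741134-39741228 for Cyp2c68, chr19:39886800-39886894 for Cyp2c69, chr19:39812815-39812909 for Cyp2c40 and chr19:39649123-39649217 for Cyp2c67. The plus-strand segments lie at chr19:39060840-39060934 for Cyp2c65 and chr19:39006858-39006952 for Cyp2c55. Each has 95 bases, written 5′ to 3′ on the strand of its gene. They were placed around the first motif below, or its nearest match in Cyp2c55, and so end at different distances before the start site, from 1 base in Cyp2c40 to 81 bases in Cyp2c67. Capitals mark the letters CAAAGTCCA, a motif of the nuclear receptor HNF4, and TATAAA, the letters of a TATA box, on either strand. The TATAAA marked in Cyp2c65 lies at -162 from the start site. Outside the segments shown, TATAAA was also found at -29 in Cyp2c55, 11 in Cyp2c69 and 41 in Cyp2c40.
Cyp2c68: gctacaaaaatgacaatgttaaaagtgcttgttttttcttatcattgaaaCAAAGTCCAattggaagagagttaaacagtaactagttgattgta
Cyp2c69: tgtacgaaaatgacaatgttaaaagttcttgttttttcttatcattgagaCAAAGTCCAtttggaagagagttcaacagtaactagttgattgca
Cyp2c40: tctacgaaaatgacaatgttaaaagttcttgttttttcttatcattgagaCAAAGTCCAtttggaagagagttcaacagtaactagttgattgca
Cyp2c67: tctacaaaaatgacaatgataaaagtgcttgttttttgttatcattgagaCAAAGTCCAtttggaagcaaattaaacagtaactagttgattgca
Cyp2c65: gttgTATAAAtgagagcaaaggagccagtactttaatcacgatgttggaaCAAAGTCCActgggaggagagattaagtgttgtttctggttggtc
Cyp2c55: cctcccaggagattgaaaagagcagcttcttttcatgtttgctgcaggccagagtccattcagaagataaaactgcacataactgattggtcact
The first 4 segments were 90.5% to 98.9% identical. The Cyp2c65 segment shared 53.0% to 59.0% of aligned positions with them, and the Cyp2c55 segment 53.8% to 59.6%. These values depend on that placing: over the whole promoter windows, counted from each start site, the first 4 genes were 53.9% to 91.1% identical, and Cyp2c65 shared 44.2% to 51.4% with them. CAAAGTCCA was found in 0.475% of the 32851 promoter windows of all genes, and in 4 of the 23 tested P450 genes that had a window. Those were Cyp2c68, Cyp2c69 and Cyp2c40, which fell, and Cyp2c65, which rose, so the letters were present before genes that changed in opposite directions. Cyp2c68, Cyp2c69 and Cyp2c40 are near copies, so their matches do not count as separate finds. This motif was searched after the sequences had been seen, and a match describes letters and not a bound site.

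Cyp2c68 was the most abundant of the 6 genes called lower. It stood at 29.5, 58.3, 42.6, 44.2 and 41.8 TPM in WT and at 5.29, 11.9, 4.02, 7.45 and 2.34 TPM in RhoB-/-. The highest RhoB-/- library was far below the lowest WT library, and the log2 fold change was -2.74 (SE 0.31, adjusted p = 1.12e-04). Cyp2c69 stood at 10.2, 13.9, 11.9, 10.9 and 8.68 TPM in WT and at 0.76, 3.43, 0.61, 1.89 and 1.08 TPM in RhoB-/-, a log2 fold change of -2.34 (SE 0.25, adjusted p = 8.6e-05). Cyp2c40 was rarer, at 1.24, 3.41, 1.40, 4.97 and 1.15 TPM in WT and at 0.28, 1.01, 0.00, 0.09 and 0.05 TPM in RhoB-/- (log2 fold change -1.34, SE 0.32, adjusted p = 0.0140). For both genes the groups stayed apart, but the gap for Cyp2c40 rested on 1.01 against 1.15 TPM. Cyp2c67, below the filter, stood at 0.18, 0.34, 0.08, 0.44 and 0.34 TPM in WT and was listed at 0 in 4 RhoB-/- libraries and at 0.11 TPM in the other (exact permutation p = 0.0159). It was named after its values were seen, and p-values of genes below the filter are unadjusted.

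The 4 minus-strand genes share sequence. Of all runs of 75 bases in their main transcripts, 28.5% of those of Cyp2c68, 43.2% of those of Cyp2c69 and 57.1% of those of Cyp2c40 were also found in a transcript of another gene, most often of Cyp2c40 or Cyp2c69. How the authors' estimate divided such reads among the genes is therefore uncertain. The sum does not depend on that division within the 4 genes: it was 57.1 ± 12.8 TPM in WT, from 41.1 to 75.9, and 8.06 ± 5.15 TPM in RhoB-/-, from 3.47 to 16.3 (SD, n = 5 each).

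Cyp2c65 went the other way. It stood at 169.8, 132.4, 225.5, 180.7 and 220.2 TPM in WT and at 263.3, 219.0, 360.8, 357.3 and 458.5 TPM in RhoB-/-. Only RhoB-/- replicate 2 lay within the WT range, and the log2 fold change was 0.81 (SE 0.21, adjusted p = 0.0178). Its near copy Cyp2c66 stood at 2.12 ± 0.863 TPM in WT and 2.88 ± 1.99 in RhoB-/- (SD, n = 5 each) and was not called (log2 fold change 0.21, adjusted p = 0.688). Of the Cyp2c65 transcript, 11.4% of the runs of 75 bases were shared with Cyp2c66, and none of the Cyp2c55 transcript were shared with any gene.

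**Figure D3:**
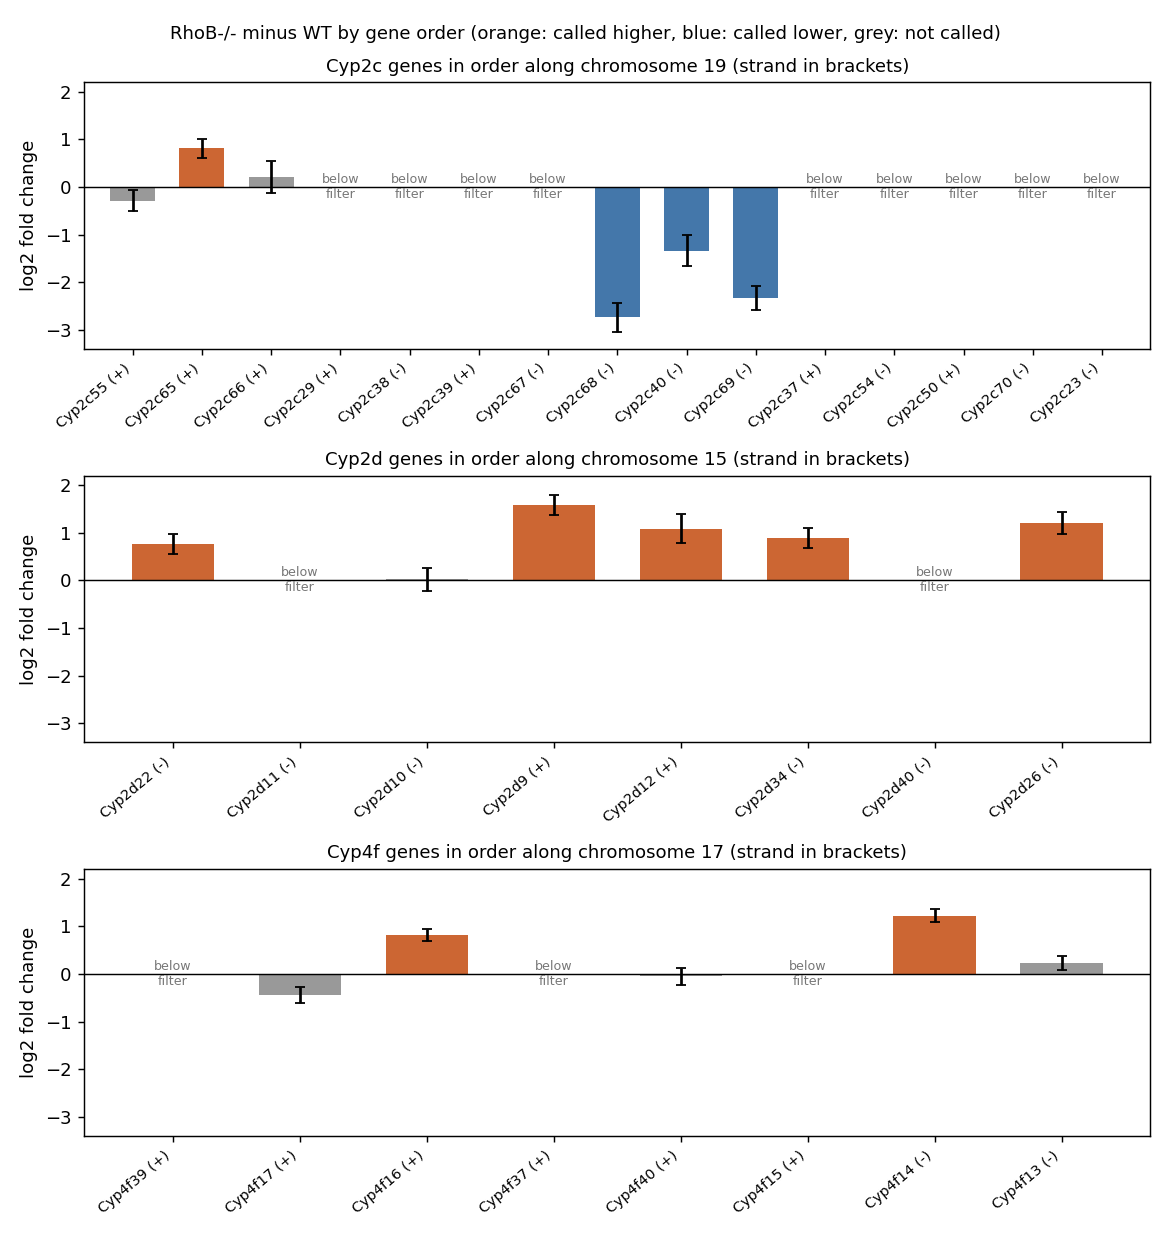
Log2 fold change (y axis, bars with standard errors) of the Cyp2c genes on chromosome 19, the Cyp2d genes on chromosome 15 and the Cyp4f genes on chromosome 17, in their order along the chromosome, with strand in brackets. In Cyp2c the 3 called falls stand together on the minus strand and the rise of Cyp2c65 stands apart from them, and in Cyp2d 5 of the 6 tested genes rose.

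The Cyp2d subfamily lies in 1 stretch of chromosome 15, and its human counterpart metabolizes many drugs. Of its 8 genes 6 passed the filter, 5 were called higher and none lower. Cyp2d34 was the most abundant, at 37.0, 98.3, 68.5, 66.2 and 66.7 TPM in WT and at 118.6, 122.6, 98.9, 118.5 and 143.8 TPM in RhoB-/- (log2 fold change 0.88, SE 0.21, adjusted p = 0.0128). WT replicate 2 came within 1 TPM of the lowest RhoB-/- library. Cyp2d26 stood at 10.2, 25.1, 19.8, 24.8 and 17.5 TPM in WT and at 46.3, 39.7, 44.4, 32.4 and 63.1 TPM in RhoB-/- (log2 fold change 1.20, SE 0.23, adjusted p = 0.00496).

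Cyp2d9, a testosterone hydroxylase known from the male mouse liver, had the largest rise of the 28 genes. It stood at 2.59, 6.97, 3.18, 2.52 and 4.34 TPM in WT and at 16.2, 12.9, 11.0, 12.5 and 13.0 TPM in RhoB-/- (log2 fold change 1.58, SE 0.21, adjusted p = 3.93e-04). The lowest RhoB-/- library was above the highest WT library by more than the SD of either group. All mice were male by their transcripts, with Eif2s3y of the Y chromosome at 34.4 TPM or more and Xist at 0.08 TPM or less in every library. Cyp2d12 stood at 3.35, 10.02, 5.42, 6.44 and 7.10 TPM in WT and at 10.5, 20.4, 11.7, 26.1 and 8.55 TPM in RhoB-/-, with overlap at RhoB-/- replicate 5 (log2 fold change 1.09, SE 0.30, adjusted p = 0.0263). Cyp2d22, the nearest mouse relative of human CYP2D6 in function, stood at 6.11, 11.98, 12.1, 9.47 and 8.90 TPM in WT and at 10.8, 22.9, 13.3, 19.3 and 20.5 TPM in RhoB-/-, with overlap at RhoB-/- replicate 1 (log2 fold change 0.76, SE 0.22, adjusted p = 0.0285). Both calls lay near the threshold, and leaving out any of several single libraries was enough to lose them. Cyp2d12 lost its call when WT replicate 1, WT replicate 4, RhoB-/- replicate 2 or RhoB-/- replicate 4 was left out (adjusted p up to 0.0594), and Cyp2d22 lost it with those and with WT replicate 5 or RhoB-/- replicate 5 left out (adjusted p up to 0.0693).

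Cyp2d10 was not called, at 18.5 ± 6.27 TPM in WT and 18.6 ± 5.19 in RhoB-/- (SD, n = 5 each, log2 fold change 0.03, adjusted p = 0.946). Cyp2d9 and Cyp2d10 are close copies, and their promoters are shown because 1 of the pair was called and the other was not, while the letters before them are alike. The difference between their changes was not tested. The Cyp2d9 segment lies at chr15:82452282-82452376 on the plus strand and the Cyp2d10 segment at chr15:82407198-82407292 on the minus strand (RefSeq, GRCm38.p6), each with 95 bases placed around the first motif. The first run of capitals marks a match to the longer HNF4 motif, a direct repeat with 1 base between its copies, and the second marks TATAAA, read here on the other strand.
Cyp2d9: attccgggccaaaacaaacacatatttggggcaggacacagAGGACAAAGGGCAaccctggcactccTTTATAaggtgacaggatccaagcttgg
Cyp2d10: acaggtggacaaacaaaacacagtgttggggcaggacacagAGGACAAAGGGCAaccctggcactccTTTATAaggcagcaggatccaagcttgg
The 2 segments were 85.3% identical and hold both motifs at matching places. This HNF4 repeat was found in 0.237% of all windows, and these were the only 2 of the 23 tested P450 genes with it. As close copies, the 2 genes do not count as separate finds. Of the runs of 75 bases, 16.7% in Cyp2d9 and 26.7% in Cyp2d10 were shared with another gene. Only 5.49% of those of Cyp2d9 were shared with Cyp2d10, and Cyp2d10 shared the most, 17.5%, with Cyp2d11. For Cyp2d34, Cyp2d12, Cyp2d26 and Cyp2d22 the shared portion was 2.30% to 5.32%.

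Other motifs were searched on both strands of the same windows. GCGTG, the core letters that the aryl hydrocarbon receptor (AhR) binds, was in 7 of the 23 windows and in 32.4% of all windows. AGGTCA, a nuclear receptor half-site that overlaps part of the longer HNF4 motif, was in 1 of 23 and in 16.3%. TATAAA was in 8 of 23 and in 13.6%, TTTATNG, read by CDX factors, in 2 of 23 and in 10.9%, and the core of the interferon-stimulated response element in 2 of 23 and in 3.44%. The HNF1 motif was in none of the 23.

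The rest of the CYP2 family gave 1 rise and 1 fall. Cyp2j6, of a subfamily that acts on polyunsaturated fatty acids, stood at 22.6, 26, 30.5, 32.5 and 27.6 TPM in WT and at 44.3, 31.5, 47.2, 34.8 and 69.5 TPM in RhoB-/- (log2 fold change 0.64, SE 0.19, adjusted p = 0.0332). It lost its call when WT replicate 1, 2 or 5 or RhoB-/- replicate 1 or 5 was left out (adjusted p up to 0.0719). Cyp2f2, known from the club cells of the airway, where it turns naphthalene into a toxic product, stood at 7.90, 20.3, 8.88, 12.1 and 9.40 TPM in WT and at 1.34, 6.49, 1.11, 1.65 and 1.26 TPM in RhoB-/- (log2 fold change -2.03, SE 0.35, adjusted p = 0.00213). In Cyp2f2 replicate 2 was the highest of each genotype, and 4 of the 5 RhoB-/- libraries lay under 2 TPM. Cyp2s1, an epithelial P450, stood at 56.6 ± 5.05 TPM in WT and 48.1 ± 6.74 in RhoB-/- (SD, n = 5 each, log2 fold change -0.24, adjusted p = 0.161). Cyp2w1, known from the fetal colon and colon tumours, stood at 4.28 ± 2.23 and 2.202 ± 0.978 TPM (SD, n = 5 each, log2 fold change -0.68, adjusted p = 0.101).

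In the CYP3 family 1 of 7 genes passed the filter, Cyp3a13, a CYP3A enzyme known from tissues outside the liver. It stood at 18.8, 31.9, 58.2, 29.7 and 53.8 TPM in WT and at 65.7, 81.7, 78.0, 83.3 and 124.8 TPM in RhoB-/-, with a log2 fold change of 1.23 (SE 0.28, adjusted p = 0.0105). The WT libraries differed among themselves by over 3-fold, and the RhoB-/- libraries were all above them. Cyp3a25 and Cyp3a44, just below the filter, stood lower in RhoB-/-. Cyp3a25 stood at 0.40, 0.55, 2.35, 0.25 and 1.57 TPM in WT and at 0.19, 0.13, 0.00, 0.00 and 0.04 TPM in RhoB-/- (exact permutation p = 0.00794). Cyp3a44 stood at 0.89, 0.42, 1.42, 0.10 and 2.22 TPM in WT and at 0.00, 0.09, 0.00, 0.00 and 0.16 TPM in RhoB-/- (exact permutation p = 0.0159). Cyp3a11, the main liver form, was listed at 0.03 to 0.18 TPM in WT and at 0 in each RhoB-/- library. These 3 genes were named after their values were seen.

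In the CYP4 family 7 of 17 genes passed the filter, 2 were called higher and none lower. Cyp4f14, which inactivates leukotrienes by hydroxylation of their end carbon, stood at 53.0, 51.0, 67.0, 41.5 and 59.3 TPM in WT and at 113.9, 126.1, 125.2, 119.1 and 151.1 TPM in RhoB-/- (log2 fold change 1.22, SE 0.13, adjusted p = 9.2e-05). Its spread within each genotype was small beside the gap between them. Cyp4f16 stood at 25.2, 33.4, 32.1, 32.8 and 29.8 TPM in WT and at 51.9, 45.1, 48.5, 63.3 and 67.5 TPM in RhoB-/- (log2 fold change 0.82, SE 0.13, adjusted p = 0.00151). Of the runs of 75 bases of Cyp4f16, 16.1% were shared with another gene, mostly Cyp4f37, which stood at 0.214 ± 0.302 and 0.546 ± 0.228 TPM (SD, n = 5 each).

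The neighbours of these genes on chromosome 17 were not called. Cyp4f40 stood at 59.9 ± 8.38 TPM in WT and 58.7 ± 15.01 in RhoB-/- (log2 fold change -0.05, adjusted p = 0.846), and Cyp4f13 at 40.8 ± 7.88 and 47.8 ± 5.92 TPM (log2 fold change 0.24, adjusted p = 0.258; SD, n = 5 each). Cyp4f17 had groups that did not overlap but missed the threshold, at 1.69 ± 0.427 and 0.962 ± 0.192 TPM (SD, n = 5 each, log2 fold change -0.45, adjusted p = 0.0709). Cyp4b1, known from lung, spread widely, at 19.7 ± 10.5 and 9.76 ± 5.73 TPM (SD, n = 5 each, log2 fold change -0.93, adjusted p = 0.122), and Cyp4v3, a fatty acid hydroxylase, showed a log2 fold change of -0.31 (adjusted p = 0.226).

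Of the 6 sterol and bile acid hydroxylases, 2 passed the filter. Cyp39a1, which hydroxylates an oxysterol on the way to bile acids, stood at 8.76, 9.25, 6.97, 9.61 and 7.83 TPM in WT and at 5.47, 3.84, 7.07, 4.22 and 4.07 TPM in RhoB-/- (log2 fold change -0.70, SE 0.15, adjusted p = 0.00879). RhoB-/- replicate 3 reached the lower end of the WT range and the other RhoB-/- libraries lay below it. Cyp27a1, the mitochondrial sterol hydroxylase of the alternative bile acid route, stood at 4.68, 9.35, 7.13, 7.74 and 6.76 TPM in WT and at 3.17, 5.11, 5.84, 6.47 and 4.53 TPM in RhoB-/- and was not called (log2 fold change -0.43, adjusted p = 0.113). Cyp7a1, the rate-limiting enzyme of the main route in liver, was at 0 in every library.

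The vitamin D hydroxylases were rare. Cyp2r1, which makes the circulating form, showed a log2 fold change of -0.24 (adjusted p = 0.396). Cyp24a1, which inactivates the hormone, stood at 0.48, 0.97, 0.02, 0.21 and 0.23 TPM in WT and at 0.24, 0.62, 0.37, 0.33 and 1.02 TPM in RhoB-/- (exact permutation p = 0.468), and the groups overlapped throughout. Cyp27b1, which makes the hormone, stood at 0.112 ± 0.0638 and 0.068 ± 0.0585 TPM (SD, n = 5 each). The orphan P450 Cyp20a1, with no settled substrate, stood at 6.96, 7.40, 6.18, 7.60 and 7.30 TPM in WT and at 5.05, 5.50, 5.86, 5.53 and 4.91 TPM in RhoB-/- (log2 fold change -0.34, SE 0.10, adjusted p = 0.0261). It had the smallest change of the called genes, and its adjusted p rose to as much as 0.0723 when single libraries were left out, with the call lost for WT replicates 2, 4 and 5 and RhoB-/- replicates 1, 4 and 5.

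Of the 3 CYP1 genes, the 3 retinoic acid hydroxylases and the 6 genes of steroid hormone synthesis none passed the filter. Cyp1a1, the classical AhR target, stood at 0.00, 0.05, 0.07, 0.02 and 0.00 TPM in WT and at 0.00, 0.16, 0.00, 0.08 and 0.00 TPM in RhoB-/-. Cyp26b1, which degrades retinoic acid, stood at 0.04, 0.06, 0.04, 0.04 and 0.04 TPM in WT and at 0.06, 0.01, 0.00, 0.06 and 0.02 TPM in RhoB-/-. Cyp11a1, which makes the first steroid from cholesterol, stood at 0.00, 0.10, 0.00, 0.00 and 0.00 TPM in WT and at 0.00, 0.03, 0.09, 0.00 and 0.09 TPM in RhoB-/-. The groups overlapped for Cyp1a1, Cyp26b1 and Cyp11a1 (exact permutation p = 0.643, 0.230 and 0.524). At such levels, with the table given to 2 decimals, only large relative differences could be seen.

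In all, 66 of the 94 genes were below the filter: 24 were at 0 in every library, 29 had a mean above 0 and below 0.1 TPM, and 13 a mean of 0.1 to 1 TPM. Those at 0 included Cyp1a2, Cyp2e1 and Cyp7a1, abundant in liver, and Cyp19a1 and Cyp21a1 of steroid synthesis. Of the 13, RhoB-/- lay below WT without overlap for Cyp3a25 and above it for none. In all genes of that level, 3.64% lay below and 2.89% above. Around the filter, Cyp2r1 was the rarest gene inside it and Cyp2j9, at 0.906 ± 0.304 and 0.734 ± 0.291 TPM (SD, n = 5 each), was the most abundant outside it. The coefficient of variation of the 28 tested genes had a median of 25.3% in WT and 27.6% in RhoB-/-, and ranged from 7.87% to 69.7% and from 7.19% to 146%.

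The genes that serve and steer P450 enzymes were taken from lists of electron donors, haem genes, sensors, AhR targets, retinoid genes, epoxide hydrolases and steroid genes. Of 80 measured, 61 passed the filter, 3 were called higher and 10 lower, beside the 7.73% and 13.5% of all genes. These counts moved with the processing, to 10 higher and 10 lower with each library centred on its median, 7 and 14 after quantile normalization and 4 and 22 without mitochondrial genes. With single libraries left out the lower count ran from 4 to 19, and moved by over 1.5 times without WT replicate 2 (6), WT replicate 4 (4), WT replicate 5 (6), or RhoB-/- replicate 1 (4), 2 (6), 3 (19), 4 (5) or 5 (6). Without the library labelled RhoB-/- replicate 5, Cpox, Ephx2, Hsd11b2, Nqo1 and Rbp2 lost their calls. Among 10 tested electron donors only Fdxr, the ferredoxin reductase of mitochondria, was called (log2 fold change -0.69, adjusted p = 0.00734). Por stood at 81.0 ± 11.7 TPM in WT and 99.2 ± 17.5 in RhoB-/- (SD, n = 5 each, log2 fold change 0.28, adjusted p = 0.166).

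Of 12 genes of haem synthesis and breakdown 3 were lower. Hmox1, which degrades haem, showed a log2 fold change of -0.88 (adjusted p = 0.0135), and Cpox and Fech, of the last steps of synthesis, had -0.44 (adjusted p = 0.0412) and -0.38 (adjusted p = 0.0186). Cpox lost its call with 7 of the 10 libraries left out in turn (adjusted p up to 0.0939) and Fech with 3 (up to 0.0569). Of 3 tested genes of the epoxide hydrolase family, known for acting on epoxides that P450 enzymes make, all 3 were called lower. Among all tested genes 13.5% were called lower. Ephx2 lost its call with 8 of the 10 libraries left out in turn (adjusted p up to 0.0838). The log2 fold change was -0.90 for Ephx4 (adjusted p = 0.00205), -0.74 for Ephx1 (adjusted p = 0.00733) and -0.42 for Ephx2 (adjusted p = 0.0345). Ephx4 stood at 5.30 to 5.98 TPM in WT and 1.55 to 3.44 in RhoB-/-, with no overlap. Nqo1, another AhR target, was lower (log2 fold change -0.56, adjusted p = 0.0352), as was Hsd11b2, which inactivates glucocorticoids (-0.60, adjusted p = 0.0280). Nqo1 lost its call with 7 of the 10 libraries left out in turn and Hsd11b2 with 6, and without RhoB-/- replicate 5 their adjusted p was 0.0562 and 0.0590.

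Of 19 sensors of foreign chemicals and bile acids, Nr1h4, which encodes the bile acid receptor FXR, was higher. It stood at 57.8, 55.1, 73.5, 57.9 and 77.7 TPM in WT and at 116.0, 111.5, 129.1, 129.8 and 162.5 TPM in RhoB-/- (log2 fold change 1.002, SE 0.14, adjusted p = 4.83e-04), with no overlap. Hnf4g was lower (log2 fold change -0.50, adjusted p = 0.0352) but lost its call with 7 of the 10 libraries left out in turn (adjusted p up to 0.0923). Hnf4a (0.28, adjusted p = 0.1001), Nr1i2, the receptor PXR (0.01, adjusted p = 0.959), and Ahr (-0.29, adjusted p = 0.115) were not called. Hnf4a was called higher with each library centred on its median, and Ahr was called lower without mitochondrial genes. Nr1i3, below the filter in the main fit, was also called lower there, at 0.80 to 2.55 TPM in WT and 0.27 to 0.79 in RhoB-/-. Of 8 tested retinoid genes, Dhrs9, a retinol dehydrogenase, rose from 4.54 ± 0.548 to 17.3 ± 8.33 TPM (SD, n = 5 each, log2 fold change 1.61, adjusted p = 0.00160), and Rbp2, which binds retinol in enterocytes, showed a log2 fold change of 0.86 (adjusted p = 0.0440). Rbp2 lost its call with 7 of the 10 libraries left out in turn, RhoB-/- replicate 5 among them (adjusted p = 0.103).

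Markers of cell types and of bowel region moved with genotype as well. Their part in the P450 results was not tested. Hoxb13, a gene of the distal colon, stood at 50.02, 135.0, 67.2, 79.4 and 74.99 TPM in WT and at 22.4, 35.1, 17.8, 26.5 and 14.0 TPM in RhoB-/- (log2 fold change -1.76, SE 0.27, adjusted p = 0.00113), and the 2 measured distal genes summed to 54.4 to 155.5 TPM in WT and 15.6 to 39.3 in RhoB-/-. Hoxd13, the other one, was not called (log2 fold change -0.91, adjusted p = 0.125). All 5 enteroendocrine markers were lower, with sums of 417.0 to 588.4 and 168.3 to 270.7 TPM, led by Insl5 of the colonic L cell (log2 fold change -2.18, adjusted p = 4.84e-04). Chga among them lost its call without RhoB-/- replicate 5 (adjusted p = 0.0571).

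In Cyp2c68, Cyp2c69, Cyp2f2, Hoxb13 and Insl5 alike, replicate 2 was the highest library of each genotype. It was not so for the other lower P450 genes, Cyp2c40, Cyp39a1 and Cyp20a1, nor for Hoxd13, Chga, Chgb, Pyy and Gcg. The shared order was noticed after the values were seen, and replicates of the same number are different mice. On the higher side, Krt20, Vil1 and Aqp8 of mature colonocytes were called among 8 colonocyte markers, and Krt20 stood at 588.1 to 902.4 TPM in WT and 1070 to 2414 in RhoB-/-. RhoB-/- replicate 5 had the highest Krt20 and Aqp8, and was the highest RhoB-/- library for 7 of the 10 higher P450 genes. WT replicate 1 was the lowest WT library for 7 of these 10. The same library was the lowest for 7 of the 12 genes not called and 2 of the 6 lower genes. It had the largest mitochondrial share, 26.5%, and the part of that share was not tested. Of 6 goblet markers, Clca1, Fcgbp and Spink4 were called higher, with sums over the list of 10603 to 13233 TPM in WT and 13373 to 16141 in RhoB-/-. Muc2, the most abundant of them, stood at 4981 ± 1239 TPM in WT and 4294 ± 629 in RhoB-/- (SD, n = 5 each) and Agr2 at 2231 ± 225 and 1539 ± 489 TPM, and neither was called (adjusted p = 0.474 and 0.0523). Spink4 lost its call without RhoB-/- replicate 5 (adjusted p = 0.0543).

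Immune markers were called higher for 4 of 5 tested genes but were rare, with sums of 5.53 to 10.8 and 18.0 to 31.5 TPM over 8 genes. Of these 4, Cd8a had a WT mean of 0.832 TPM and passed the filter through RhoB-/- alone, as did Lyz2, which was not called. Stromal genes summed to 4.21 to 5.30 and 6.48 to 36.5 TPM over 7, with the 36.5 in RhoB-/- replicate 5 and 16.2 the next highest. Dcn was called higher with and without that library (log2 fold change 1.505 and 1.11, adjusted p = 0.0202 and 0.0170). Of 3 tested genes of the small intestine, Fabp2 and Alpi were called higher, Fabp2 not without RhoB-/- replicate 5 (adjusted p = 0.112), while Lct and Apoa4 stayed at or under 0.22 TPM. Of 4 proliferation genes Mki67 and Mcm5 were called lower, neither of them without RhoB-/- replicate 5 (adjusted p = 0.0721 and 0.1003), with sums of 188.2 to 243.5 and 101.4 to 223.2 TPM. Ttr of the hepatocyte list and Cela1 of the pancreas list were lower (log2 fold changes -2.02 and -1.56), while Alb was at 0.97 TPM or less and Cpa1, Prss2 and Pnlip were at 0.

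**Figure D4:**
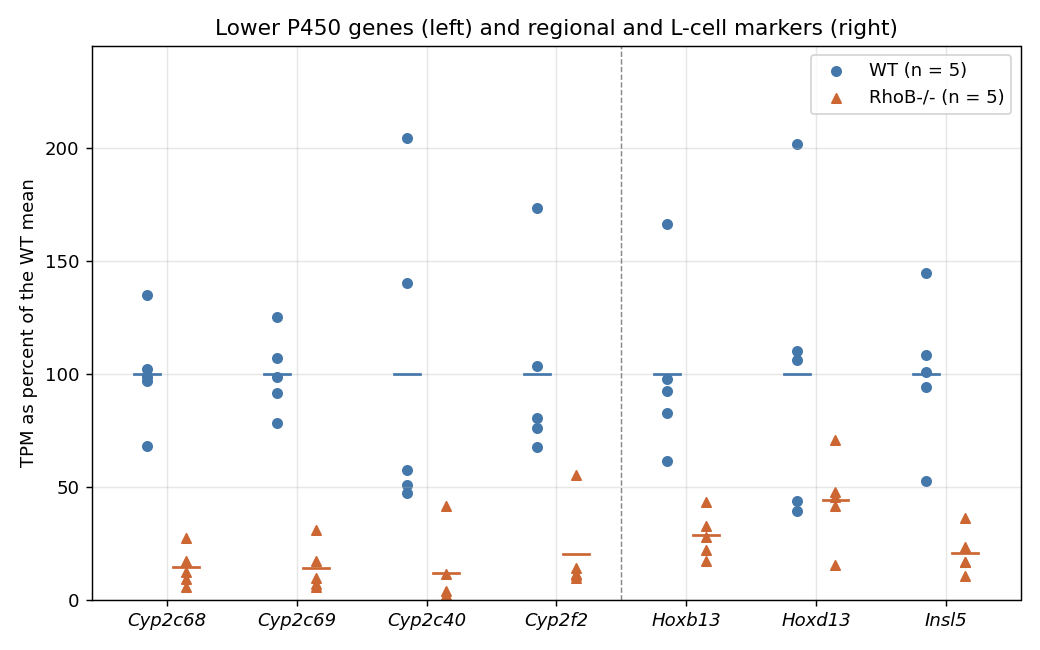
TPM of 4 lower P450 genes and of Hoxb13, Hoxd13 and Insl5 in each library, as percent of the WT mean of the gene (y axis), with lines at the group means (n = 5 each). All RhoB-/- points lie below all WT points for Cyp2c68, Cyp2c69, Cyp2c40, Cyp2f2, Hoxb13 and Insl5, and the groups overlap for Hoxd13.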

How the data were processed

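The data are RNA libraries of colonic IECs, 5 labelled WT and 5 labelled RhoB-/-, each taken as 1 replicate. The authors sequenced TruSeq libraries with paired-end reads, used SeqPrep and Sickle for trimming and HISAT2 for alignment, and then StringTie for assembly and RSEM for gene levels. GRCm38.p6 is named in the submitters' processing notes, which also list edgeR. The annotation release is not given in the sources used here. The deposited TPM values, rounded to 2 decimals, were used as the authors gave them, and TPM holds no depth, so counting error is unknown.

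The fit used limma 3.58.1 (R 4.3.3; lmFit, and eBayes with its trend option). Its input was log2(TPM + 1) of 12870 genes, those that averaged at least 1 TPM, and Benjamini-Hochberg adjustment covered all of them. Named genes below that filter, and sums over genes, were compared by a two-sided exact permutation test over the libraries. The limma step was tested on simulated data for this comparison on 12870 genes, with independent noise and 200 changed genes. It recovered 93.5% of the changed genes, with 6.03% of its calls false. The changes all had 1 fixed size, a little below the log2 fold change of Cyp2d9 (1.58) and above those of the other higher P450 genes. Recovery of smaller changes was not tested.

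Members given with every library were the 5 most abundant, the 8 higher called genes with the largest changes, the 6 lower called genes (the rule allowed 8), and Cyp1a1, Cyp24a1, Cyp27a1, Cyp11a1 and Cyp26b1; of the partner genes, up to 3 called per list and direction. Cyp2d22 and Cyp2j6 were added after their values were seen. Members, marker lists and partner lists were chosen with earlier results of these data known. Positions are from GENCODE M21 on GRCm38 (94 of 94 matched), and promoters from RefSeq (73 of 94 matched). Shared runs of 75 bases were counted on 1 main transcript per gene against the other transcripts of that release. Alternatives were other pseudocounts, filters, scalings, a fit without the trend, a replicate block, the rule of an unadjusted p below 0.05 with a fold above 1.5, and each library left out.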

Additional observations from a re-analysis of the deposited data

Results flagged for a closer look

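Single libraries stood apart in 3 of the 56 groups of 5 values tested, 2 groups for each of the 28 genes, and chance alone gives about 1 in 20. For Cyp2f2, RhoB-/- replicate 2 at 6.49 TPM was far above the other RhoB-/- libraries, and for Cyp2c40 the same library, at 1.01 TPM, was far above them. Leaving out that library kept both genes lower. For Cyp4f17, WT replicate 2, at 2.44 TPM, was far above the other WT libraries.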

How the results depend on the processing

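Of the 10 higher P450 genes, Cyp2c65, Cyp2d34, Cyp4f14, Cyp3a13, Cyp4f16, Cyp2d26 and Cyp2d9 kept their call under all 19 alternatives. Of the lower ones, Cyp2c68, Cyp2c69, Cyp2f2 and Cyp39a1 did so under all 19. Cyp2c40 did so under the 17 in which it passed the filter, but it passed through WT alone, which fixed its direction and favoured its call. The higher count ran from 7 (no filter) to 11 (each library centred on its median) and from 7 to 10 with single libraries left out. The lower count moved to 10 without mitochondrial genes and ran from 4 to 8 with single libraries left out. Partner genes called higher moved to 7 with quantile normalization and to 10 with each library centred on its median. Those called lower moved to 6 with no filter, to 6 with an unadjusted p below 0.05 and a fold above 1.5 and to 22 without mitochondrial genes, and ran from 4 to 19 with single libraries left out. The direction turned for Cyp4f40, to 0.062 with each library centred on its median, and for Cyp2d10, to -0.044 without mitochondrial genes. With single libraries left out they ran from -0.16 to 0.066 and from -0.14 to 0.17. Neither gene was called in any of these, and the causes were not tested.

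Both genotypes carry replicate numbers 1 to 5, and the labels name no pairs. Over all tested genes, same-numbered libraries did not deviate together (correlations of -0.09 to 0.07). A correlation over all genes cannot exclude a shared batch that acts on some of them. With the replicate number as a block, the SE fell for Cyp2c65 (0.21 to 0.12) and Cyp3a13 (0.28 to 0.18) and rose for Cyp4f16 (0.13 to 0.14). A fit with the replicate number as a block gave 10 higher and 5 lower P450 genes, without Cyp20a1, and 3 higher and 7 lower partner genes, without Cpox, Fech and Hnf4g.

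Without read counts, the precision of genes under 1 TPM is unknown, and a value of 0 sets no upper limit. Near copies share reads, so values of single Cyp2c and Cyp2d genes depend on how RSEM divided them. Calls also depend on TPM being relative to each library.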

Other observations

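The table holds 40 further symbols that begin with Cyp and a digit and lie outside the naming rule, 33 of them marked as pseudogenes, and 3 had a mean of at least 1 TPM. Cyp51, the lanosterol demethylase of cholesterol synthesis, stood at 65.2 ± 10.7 TPM in WT and 55.2 ± 6.02 in RhoB-/- (SD, n = 5 each) and was not called (log2 fold change -0.23, adjusted p = 0.209, limma). The pseudogene Cyp4f41-ps was lower, at 1.85, 3.71, 1.65, 2.62 and 2.18 TPM in WT and 0.57, 0.55, 1.41, 0.09 and 0.30 TPM in RhoB-/- (log2 fold change -1.12, SE 0.24, adjusted p = 0.00776), with no overlap between the groups. Its RhoB-/- mean was 0.584 TPM, so it passed the filter through WT alone, which fixed its direction and favoured its call. Cyp2d37-ps, at 3.24 ± 0.591 and 2.53 ± 0.420 TPM (SD, n = 5 each), was not called (log2 fold change -0.26, adjusted p = 0.197). The eicosanoid P450 genes Ptgis and Tbxas1, which make prostacyclin and thromboxane, stood under 1 TPM on average, at 0.114 ± 0.0627 and 0.560 ± 0.543 TPM for Ptgis and 0.0980 ± 0.112 and 0.364 ± 0.119 TPM for Tbxas1 in WT and RhoB-/- (SD, n = 5 each).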
